A study of Mus musculus with 22 samples.

Results

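The 38 genes described here encode the endoplasmic reticulum (ER) machinery that loads, folds and discards secreted proteins, together with transcription factors of the unfolded protein response (UPR). They were taken by name from the 52636 genes of the count table after Ensembl identifiers had been matched to symbols, and each of the 38 names matched 1 gene. They comprise 13 chaperones and foldases (Hspa5, Hsp90b1, Pdia3, Pdia4, Pdia6, Calr, Canx, Txndc5, Txndc11, Mzb1, Sdf2l1, Manf and Creld2), 3 J-domain co-chaperones (Dnajb9, Dnajb11 and Dnajc3), 8 genes of ER-associated degradation (Derl1, Derl2, Derl3, Edem1, Edem2, Herpud1, Sel1l and Syvn1), 11 genes of the translocon and its partners (Sec61a1, Sec61b, Sec61g, Sec11c, Spcs1, Spcs2, Spcs3, Ssr1, Ssr2, Ssr3 and Ssr4) and 3 transcription factors (Atf4, Atf6 and Ddit3).

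Messenger RNA was counted from its 3′ end in 22 mouse lymphoma libraries from 15 mice of a mixed 129/C57Bl6 background. All mice carried p53fl/fl;Mb1Cretg/+, so p53 can be deleted in cells that have expressed Cre from Mb1, a B lineage promoter. The MCL-like and Ccnd2 non-MCL groups also carried R26-Ccnd2tg/tg, a cyclin D2 transgene. Primary tumours were labelled MCL-like (resembling mantle cell lymphoma; 4 mice), Ccnd2 non-MCL (3 mice) or p53-only (non-MCL tumours without the transgene; 6 mice and 7 libraries, since replicates 2 and 5 came from the same mouse), and none was labelled as treated. The transplants were tumours passed into NSG mice, an immunodeficient strain: 6 MCL-like libraries from 4 donor mice and 2 Ccnd2 non-MCL libraries from 1 donor mouse. The titles of the 6 MCL-like transplants say non-MCL while their immunophenotype field says MCL-like, and the latter was used. Each library was made from bulk tumour cells, so fewer cells of a type and less RNA per cell cannot be told apart.

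Proteins bound for secretion or the cell surface enter the ER through the Sec61 channel, lose their signal peptide, and fold with the help of chaperones and disulfide isomerases. When unfolded protein builds up, the sensors IRE1, PERK and ATF6 activate the UPR, in which spliced XBP1, ATF4 and cleaved ATF6 raise transcription of folding and degradation genes. B cells are known for large demands on this system when they become plasma cells and secrete antibody, and the immunoglobulin heavy chain is held in the ER by BiP (Hspa5) until it pairs with a light chain. The splicing of Xbp1 and the cleavage of ATF6 were not measured here.

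Promoters of the gene set are shown first, because the ER stress response element (ERSE), bound by ATF6 and XBP1 together with NF-Y, is a known shared feature of chaperone genes. RefSeq promoter windows of build GRCm38.p6, running from 250 bases before to 50 after a transcript start, were available for 30 of the 38 genes (34 windows). Manf, Derl1, Sec61a1, Sec11c, Spcs3, Ssr2, Mzb1 and Atf6 had none in the table. The ERSE letters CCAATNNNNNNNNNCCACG were sought on both strands. They lay in 39 of all 32851 windows (0.119%) and in windows of 9 of these 30 genes. The matches outside Derl3 and Creld2 follow, 5′ to 3′ along the strand of the gene, with the match in capitals. In Calr and the second Hsp90b1 site the capitals read as the reverse complement.
Hspa5, chr2:34772013-34772055, plus strand: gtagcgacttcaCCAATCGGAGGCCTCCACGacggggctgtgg
Calr, chr8:84847063-84847105, minus strand: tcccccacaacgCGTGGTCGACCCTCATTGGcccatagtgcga
Hsp90b1, chr10:86705626-86705668, minus strand: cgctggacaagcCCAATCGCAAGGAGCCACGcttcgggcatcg
Hsp90b1, chr10:86705521-86705563, minus strand: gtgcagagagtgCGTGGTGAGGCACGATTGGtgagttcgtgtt
Canx, chr11:50325788-50325830, minus strand: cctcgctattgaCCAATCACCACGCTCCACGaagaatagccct
Pdia6, chr12:17266479-17266521, plus strand: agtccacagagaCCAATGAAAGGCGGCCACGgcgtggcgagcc
Dnajc3, chr14:118937815-118937857, plus strand: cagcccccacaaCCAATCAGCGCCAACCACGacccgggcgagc
Syvn1, chr19:6046520-6046562, plus strand: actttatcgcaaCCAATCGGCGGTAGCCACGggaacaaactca

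Derl3 and Creld2 are shown with all 250 bases before the start, since Derl3 had the largest difference on transplantation among the 38 genes and Creld2 was among the genes that passed the test between primary tumours. Capitals mark the ERSE, which reads as the reverse complement in both.
Derl3, chr10:75893148-75893397, plus strand: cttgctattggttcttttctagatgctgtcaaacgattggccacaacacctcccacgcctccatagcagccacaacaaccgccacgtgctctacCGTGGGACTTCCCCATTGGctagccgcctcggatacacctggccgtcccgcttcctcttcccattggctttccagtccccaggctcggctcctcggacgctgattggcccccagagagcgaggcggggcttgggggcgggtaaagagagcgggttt
Creld2, chr15:88819396-88819645, plus strand: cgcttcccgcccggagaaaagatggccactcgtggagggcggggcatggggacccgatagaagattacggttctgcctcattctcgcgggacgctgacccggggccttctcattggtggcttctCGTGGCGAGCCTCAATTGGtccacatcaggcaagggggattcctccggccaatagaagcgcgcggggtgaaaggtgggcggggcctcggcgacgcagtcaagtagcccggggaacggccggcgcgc

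The ERSE-II letters ATTGGNCCACG, which share the CCAAT and CCACG blocks with the ERSE in another arrangement, lay in 12 of all windows (0.0365%) and in those of Herpud1 and Dnajb11; the Dnajb11 site lies past the start and is not printed. The unfolded protein response element TGACGTGG, which holds the complement of CCACG, lay in 222 windows (0.676%) and in those of Txndc5 and Txndc11. These are matches of letters and do not show binding. Capitals mark the ERSE-II in Herpud1 and the UPR element in Txndc5 and Txndc11.
Herpud1, chr8:94386365-94386399, plus strand: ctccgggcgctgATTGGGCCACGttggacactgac
Txndc5, chr13:38528033-38528064, minus strand: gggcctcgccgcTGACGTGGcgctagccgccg
Txndc11, chr16:11134615-11134646, minus strand: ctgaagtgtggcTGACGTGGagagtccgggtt

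The libraries held 2693399 to 8146613 counts, and levels are given as CPM, the counts of a gene relative to a common library total, unless TMM-scaled is stated. All 8 general B cell markers were detected in every library. The summed pro-B and pre-B markers were 4235 to 9447 CPM in Ccnd2 non-MCL primaries against 60.6 to 372 CPM in MCL-like primaries. The p53-only primaries were mixed, at 122 to 8965 CPM with a median of 480 CPM. Haemoglobin genes took 2.27% to 10.95% of counts in MCL-like primaries and 0.00884% to 3.78% in the other primaries. Erythroid markers, at 23360 to 111100 CPM in MCL-like primaries, thus moved with the comparison of tumour types, and their part in the results was not tested. Tumours whose names begin with oTP were p53-only replicates 4 to 7 and Ccnd2 non-MCL replicate 3, a naming difference whose meaning the labels do not give. By the tumour type label, MCL-like primary 1 was a mesenteric lymphoma and the other 3 MCL-like primaries were spleen. Ccnd2 non-MCL replicate 1 was a mediastinal lymphoma and replicates 2 and 3 were spleen. P53-only replicates 1 to 3 were spleen, and replicates 4 to 7 were a mediastinal lymphoma, a lymphoma, a thymoma and a lymphoma. All transplants were spleen.

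All 38 genes were detected in every group and all passed the filter on low counts. Summed over the 38 genes, the level was 5455 to 11482 CPM in MCL-like primaries, 6376 to 7956 CPM in Ccnd2 non-MCL primaries and 4793 to 8786 CPM in p53-only primaries, ranges that overlap. MCL-like transplants had 8804 to 20991 CPM, and the 2 Ccnd2 non-MCL transplants 5567 and 5525 CPM. The heat map of levels by library shows that no library was high or low for all genes: the transplants from the mouse of MCL-like primary 1 were high for most, and p53-only replicates 4 to 7 were high for a smaller set that includes Sec61g, Spcs3, Syvn1 and Dnajb9.

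**Figure D1:**
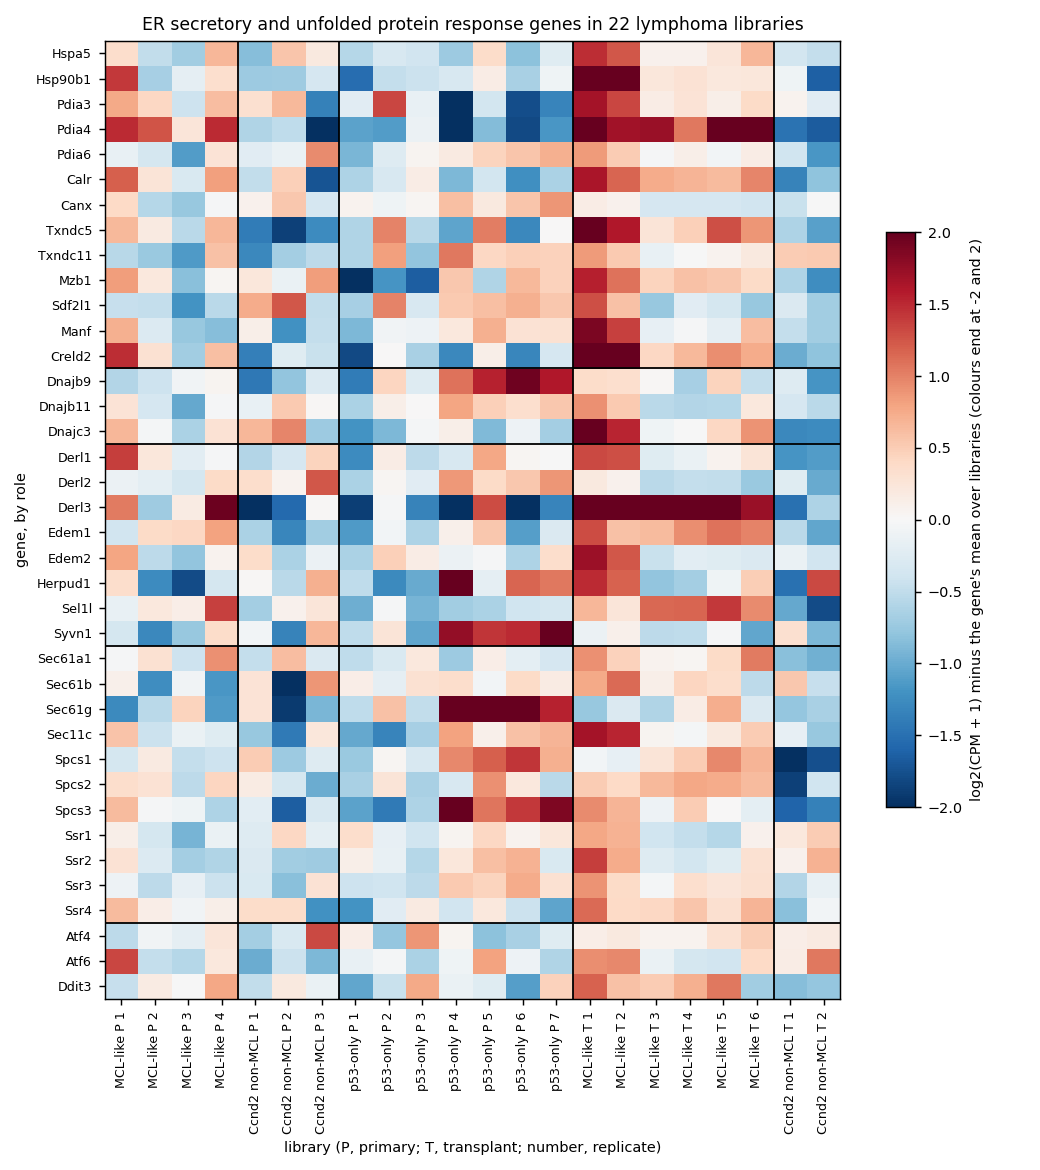
Level of the 38 genes (rows, grouped by role in the order chaperones and foldases, J-domain co-chaperones, ER-associated degradation, translocon and partners, transcription factors) in the 22 libraries (columns, by group), as log2(CPM + 1) minus the mean of the gene over libraries. MCL-like transplants 1 and 2, from the same mouse, are red for most rows, and Pdia4 is red in the 4 MCL-like primaries and all 6 MCL-like transplants.

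The question of which of these genes differ between MCL-like and other primary tumours was addressed first against all 9 non-MCL mice. Pdia4 and Creld2 were higher in MCL-like tumours, and no gene of the set was lower past the threshold. Pdia4 is a disulfide isomerase of the ER lumen, and Creld2 is an ER protein induced by ER stress. These 2 of 38 genes (5.26%) compare with 5.52% of the 12967 genes tested that were called in either direction and 2.84% called higher, by edgeR's quasi-likelihood test at a Benjamini-Hochberg adjusted p under 0.05. The share of the set that was called was therefore close to that of all genes. The median log2 change was 0.20 over the set and -0.13 over all genes tested, and without MCL-like primary 1 the median of the set turned to -0.13.

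Pdia4 had 313, 265, 132 and 314 CPM in MCL-like primaries and 72.4, 77.9 and 18.0 CPM in Ccnd2 non-MCL primaries. In p53-only libraries it had 23.6 CPM at the lowest, 50.5 at the median and 102 at the highest. The lowest MCL-like primary thus lay above every non-MCL primary. The mean was 271 ± 96.1 TMM-scaled CPM (SD, n = 4) in MCL-like tumours and 53.2 ± 28.4 (n = 9) in the others, and the log2 change was 2.35 (SE 0.40, adjusted p = 0.00826). In TMM-scaled CPM, Pdia4 was the only gene of the set without overlap in this comparison, where 2.44% of all genes were higher without overlap. The log2 change was 1.93 without oTP tumours (adjusted p = 0.0266) and 1.94 among spleen tumours (adjusted p = 0.14). Leaving out each mouse in turn gave adjusted p from 0.00509 to 0.0273.

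Creld2 had 136, 60.1, 29.4 and 73.9 CPM in MCL-like primaries and 18.2, 40.8 and 35.4 CPM in Ccnd2 non-MCL primaries. The p53-only libraries had 13.2 CPM at the lowest, 30.5 at the median and 52.5 at the highest, so the lowest MCL-like tumour lay within the range of the others. The log2 change was 1.49 (SE 0.39, adjusted p = 0.0413). Without MCL-like primary 1, the highest, it was 0.92 (adjusted p = 0.191), and the call was lost when each of 8 of the 13 mice was left out in turn, with library size scaling (adjusted p = 0.0533) and without oTP tumours (adjusted p = 0.183).

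Other chaperones differed in level without passing the threshold. Hsp90b1, the ER member of the Hsp90 family, had 2035, 480, 672 and 964 CPM in MCL-like primaries, and its log2 change was 1.12 (SE 0.34, adjusted p = 0.0682). Calr, the lectin chaperone calreticulin, had 1022, 532, 363 and 792 CPM, with a log2 change of 1.16 (SE 0.38, adjusted p = 0.0791). Its membrane-bound relative Canx had the opposite sign, at -0.36 (adjusted p = 0.452). Hspa5, which encodes the chaperone BiP, had 1258, 704, 613 and 1558 CPM in MCL-like primaries against 548 to 1448 CPM in Ccnd2 non-MCL primaries. The groups overlapped for all 4 of these chaperones. Sdf2l1, a partner of BiP, was the only chaperone with a negative change and an unadjusted p under 0.05, at -1.05 (SE 0.38, adjusted p = 0.103).

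Among the 8 degradation genes, none passed the threshold, and the 2 with the lowest p lay just outside it. Sel1l, the adaptor of the ubiquitin ligase of ER-associated degradation, had 189, 243, 231 and 543 CPM in MCL-like primaries and 107 to 250 CPM in the others. Its log2 change was 0.95 (SE 0.27, adjusted p = 0.0523). Edem1, which routes misfolded glycoproteins to degradation, had a log2 change of 0.98 (SE 0.28, adjusted p = 0.0553). Both were called when immunoglobulin and haemoglobin genes were left out of counts and totals (adjusted p = 0.0475 and 0.0485). Syvn1, the ligase itself, had the opposite sign (-1.13, SE 0.58, adjusted p = 0.237), as did Herpud1, a scaffold of that complex (-0.999, SE 0.59, adjusted p = 0.306). Derl3, a derlin of secretory cells, had a log2 change of 2.15 (SE 0.71, adjusted p = 0.0824).

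No translocon gene had an unadjusted p under 0.05 in this comparison. The 11 log2 changes ran from -1.41 for Sec61g, the small subunit of the channel (adjusted p = 0.261), to 0.60 for Ssr4, a translocon-associated subunit (adjusted p = 0.287). Their median was -0.22. The lowest p belonged to Sec61g and to Sec61a1, the pore subunit, with a log2 change of 0.49 (adjusted p = 0.281). Of the J-domain genes, Dnajb9, a BiP co-chaperone that acts on IRE1, was at -0.80 (SE 0.62, adjusted p = 0.434) and Dnajb11, a BiP co-chaperone in secretory folding, at -0.32 (adjusted p = 0.497). Dnajb9 changed sign without oTP tumours (0.34), as given below. Of the transcription factors, Atf6 had a log2 change of 0.84 (SE 0.37, adjusted p = 0.166) and Ddit3, which encodes the stress factor CHOP, of 0.35 (adjusted p = 0.541).

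**Figure D2:**
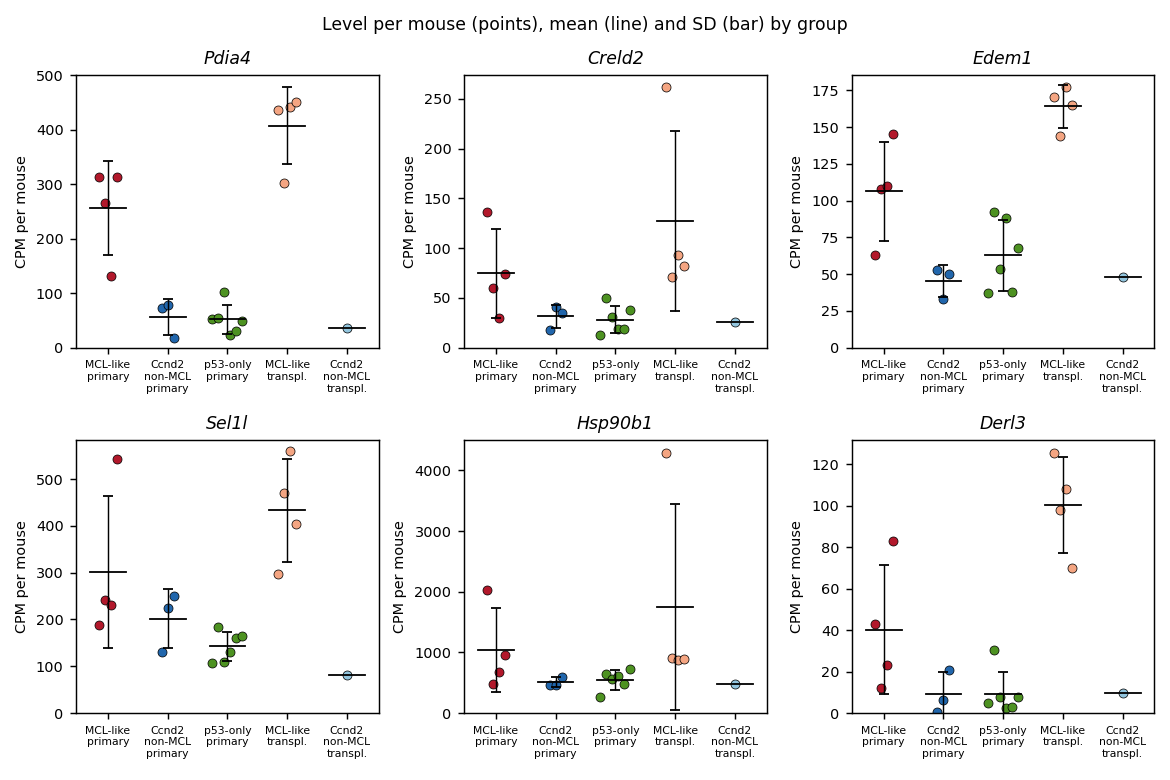
Level in CPM per mouse (points) of Pdia4, Creld2, Edem1, Sel1l, Hsp90b1 and Derl3 in the 5 groups, with the mean (line) and SD (bar, drawn from 0 upwards where it would pass below 0; none for the group of 1 mouse). The 4 MCL-like primaries of Pdia4 lie between 132 and 314 CPM, above every non-MCL primary, whereas the groups overlap for the other genes.

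Against the 3 Ccnd2 non-MCL mice alone, which share the genotype of the MCL-like mice, none of the 38 genes was called by edgeR, where 0.308% of all genes were. At an unadjusted p under 0.05 the set had 7 genes (18.4%), 6 of them higher, near the 16.8% of all genes. DESeq2 called Pdia4, Txndc5 and Edem1 (3 of 38), all higher, among 835 genes of 12967. In TMM-scaled CPM, 4 genes were higher without overlap between the groups: Pdia4, Txndc5, Dnajb9 and Edem1. They make up 10.5% of the set, beside 7.58% of all genes. In unscaled CPM the groups overlapped for Dnajb9, with 10.1 CPM in MCL-like primary 1 and 12.8 CPM in Ccnd2 non-MCL replicate 3. Over the set 25 of 38 changes were positive, with a median of 0.37 against -0.04 over all genes; without MCL-like primary 1 the median of the set was 0.15.

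Txndc5, a thioredoxin-type isomerase, had 118, 85.0, 51.3 and 120 CPM in MCL-like primaries and 27.9, 19.8 and 30.7 CPM in Ccnd2 non-MCL primaries. The log2 change was 1.97 (SE 0.54, adjusted p = 0.104) against the Ccnd2 non-MCL mice. The p53-only libraries reached 153 CPM, above every MCL-like primary, so the separation held only against the Ccnd2 group. Pdia4 had a log2 change of 2.30 (SE 0.60, adjusted p = 0.0976).

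Edem1 had 63.0, 108, 110 and 145 CPM in MCL-like primaries and 52.7, 33.0 and 50.3 CPM in Ccnd2 non-MCL primaries, a log2 change of 1.33 (SE 0.37, adjusted p = 0.108). Derl3 had 43.1, 12.03, 23.1 and 82.8 CPM against 0.371, 6.30 and 20.7 CPM, and its groups overlapped (log2 change 2.22, SE 1.06, adjusted p = 0.308). For Atf6, a log2 change of 1.28 (SE 0.48, adjusted p = 0.195) included MCL-like primary 1 at 156 CPM, while the other 3 had 40.8 to 71.5 CPM. Ddit3 was at 0.39 (adjusted p = 0.707), Dnajb11 at -0.23 (adjusted p = 0.797), Spcs2 at 0.62 (adjusted p = 0.463) and Sec11c at 0.66 (adjusted p = 0.547); the last 2 encode signal peptidase subunits. These 4 genes overlapped between the groups.

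The comparison of Ccnd2 non-MCL with p53-only primaries sets non-MCL tumours with the transgene against those without it. The summed pro-B and pre-B markers also differed between these groups, with medians of 8803 and 480 CPM and overlapping ranges. Their part in this comparison was not tested. No gene of the set was called by edgeR or by DESeq2, and edgeR called 0% of all genes. There were 5 genes with an unadjusted p under 0.05 (13.2%, beside 10.3% of all genes), all with lower levels in Ccnd2 non-MCL tumours: Dnajb9 (log2 change -1.89, SE 0.62, adjusted p = 0.37), Sec61g (-2.11, SE 0.77), Spcs3 (-1.73, SE 0.70), Txndc5 (-1.36, SE 0.50) and Txndc11 (-1.19, SE 0.43).

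The first 3 of these genes split the p53-only group into replicates 1 to 3, spleen tumours named TP, and replicates 4 to 7. The latter were named oTP and had tumour type labels other than spleen. Replicates 5 and 7 were labelled only as lymphoma, with no organ given. Name and tumour type label cannot be told apart there. Sec61g had 8.88, 19.98 and 8.93 CPM in p53-only replicates 1 to 3 and 58.0, 58.6, 66.4 and 39.7 CPM in replicates 4 to 7. Spcs3, a signal peptidase subunit, had 12.7, 9.74 and 17.6 CPM against 125, 58.9, 75.4 and 103 CPM. Dnajb9 had 5.33, 21.5 and 12.96 CPM against 34.3, 47.7, 63.3 and 49.5 CPM. The same split held for Syvn1, at 95.6, 164 and 65.9 CPM against 464, 370, 387 and 563 CPM. In all, 14 of the 38 genes (36.8%) were higher in replicates 4 to 7 without overlap, beside 18.6% of the genes that passed the filter in these libraries.

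Replicates 2 (spleen, TP) and 5 (lymphoma, oTP) came from 1 mouse and lay on either side of this split. Sec61g had 19.98 and 58.6 CPM, Spcs3 9.74 and 58.9 CPM, and Dnajb9 21.5 and 47.7 CPM in them. Ccnd2 non-MCL replicate 3, named oTP but from spleen, had 6.38, 21.97 and 12.8 CPM of the same 3 genes and 218 CPM of Syvn1, below each of p53-only replicates 4 to 7. Its Dnajb9 and Syvn1 were the highest of the 3 Ccnd2 non-MCL mice, which had 5.20 and 8.69 CPM of Dnajb9 and 132 and 53.4 CPM of Syvn1 in replicates 1 and 2. Without oTP tumours the log2 change was -0.51 for Sec61g, 0.19 for Spcs3 and -0.99 for Dnajb9. Among spleen tumours it was -1.58, 0.05 and -0.43 for these genes. Txndc5, at -1.87 without oTP tumours and -1.85 among spleen tumours, did not follow the split. The parts of name and tumour type label in these values were not tested.

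Transplantation was examined in the 3 MCL-like tumours with both a primary library and transplants, each mouse against itself. The mouse of primary 1 also changed site, from a mesenteric lymphoma to spleen, while the other 2 were spleen in both states. The set as a whole had higher levels in transplants, with no single gene past the threshold. Of the 38 log2 changes 36 were positive, with a median of 0.50 against 0.01 over the 12020 genes tested. EdgeR called none of the 38 genes and 0% of all genes, and DESeq2 called 0 of the 38 and 32 genes in all. At an unadjusted p under 0.05 there were 7 genes of the set, all with higher levels (18.4%, beside 5.46% of all genes). In TMM-scaled CPM, 21 of the 38 genes (55.3%) were higher in all 3 transplanted tumours, beside 14.2% of all genes, and none was lower in all 3.

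The tumours differed in extent. Changes within a mouse, here and below, are on the log2(CPM + 1) scale in TMM-scaled CPM unless unscaled is stated. In the mouse of MCL-like primary 1, 34 of 38 genes were higher in the transplants, with a median of 0.67. In the mouse of primary 2 it was 33 genes with a median of 0.60, and in the mouse of primary 4 it was 28 genes with a median of 0.21. Between 47.4% and 52% of all genes were higher in the same 3 mice. In unscaled CPM most of the 38 genes were lower in the transplants of the mouse of primary 4. Its count, and that of genes higher in all 3 mice, thus depend on the scaling. The median change of the set from the fit was 0.44 without the mouse of primary 1, 0.46 without that of primary 2 and 0.60 without that of primary 4. With library size scaling it was 0.39, beside -0.10 for all genes.

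Derl3 had the largest log2 change of the set on transplantation, 1.52 (SE 0.40, adjusted p = 0.82). It had 43.1 CPM in primary 1 and 145 and 99.7 CPM in its transplants, 12.03 CPM in primary 2 and 69.9 CPM in its transplant, and 82.8 CPM in primary 4 and 111 and 83.9 CPM in its transplants. Each transplant library was thus above its primary, by little in 1 of them. The transplant without a primary library, MCL-like transplant 5, had 108 CPM. With no filter on low counts the adjusted p was 0.0238, the only member called under any alternative here.

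Manf, a secreted ER stress protein, had a log2 change of 0.98 (SE 0.29), and it was higher by 0.87, 0.93 and 1.12 in the mice of primaries 1, 2 and 4. Edem1 had a change of 0.78 (SE 0.31) and values of 1.32, 0.65 and 0.35 in these mice. Txndc5 had 0.69 (SE 0.32) and Dnajc3, the co-chaperone p58IPK, had 0.76 (SE 0.35). Both were near 0 in the mouse of primary 4, at 0.07 and 0.03. Dnajb11 was at 0.27 (SE 0.29). The adjusted p of these genes was 0.82 or above.

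All 11 translocon genes had positive changes, with a median of 0.62. Sec61b, the channel's beta subunit, was highest at 1.11 (SE 0.34), with 0.73, 0.77 and 1.81 in the mice of primaries 1, 2 and 4. Ssr3, a translocon-associated subunit, was at 0.86 (SE 0.27), with 0.70, 0.89 and 0.96. The mouse of primary 4 thus had the largest values for these 2 genes, while most chaperones were lowest there: Hspa5 was at 0.93, 1.19 and -0.19 and Txndc11 at 1.18, 0.98 and -0.29. Sec11c and Ssr2 were the other translocon genes with an unadjusted p under 0.05, at 0.85 (SE 0.30) and 0.68 (SE 0.28).

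The transcription factors varied between mice. Ddit3 was at 1.31, -0.81 and 0.21 in the mice of primaries 1, 2 and 4, and Atf6 at -0.49, 0.92 and -0.09. Atf4, which drives amino acid and oxidative stress genes, was at 0.58, 0.61 and 0.20 (fitted change 0.47, SE 0.30). Derl2 and Canx were the 2 genes of the set with negative fitted changes, at -0.29 and -0.03.

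**Figure D3:**
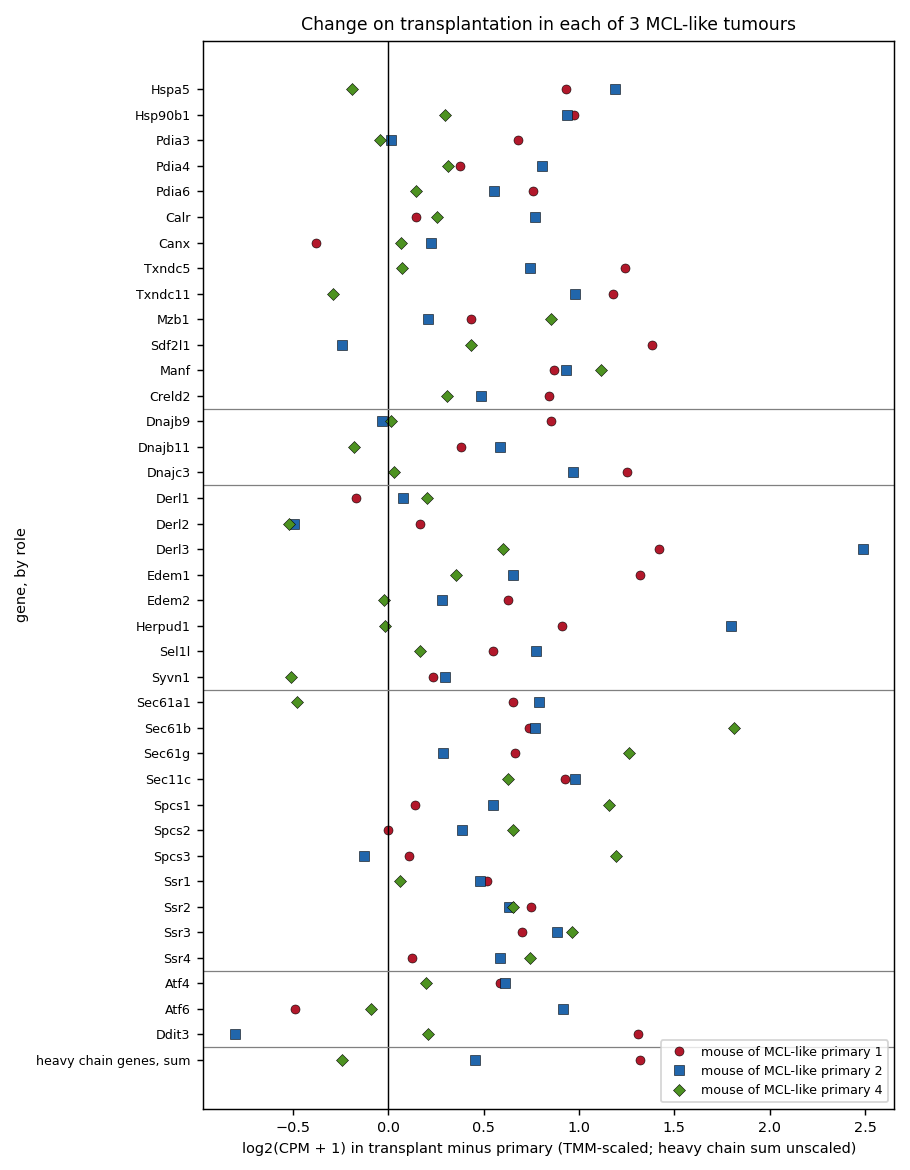
Change on transplantation, as log2(CPM + 1) in the transplants minus the primary of the same mouse. The 38 genes (rows, by role) are in TMM-scaled CPM, and the summed heavy chain genes (last row) in unscaled CPM. Symbols stand for the 3 mice; most points lie right of 0, and in the mouse of MCL-like primary 4 Hspa5 and Txndc11 lie left of 0 while Manf, Sec61b, Sec61g, Spcs1 and Spcs3 exceed 1.

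Other cell content moved with transplantation as well. Haemoglobin genes took 5.01%, 10.95% and 2.27% of counts in primaries 1, 2 and 4. In their 5 transplant libraries the share was 0.0272% to 1.07%, except 11.7% in MCL-like transplant 1. Summed T cell markers were 73.8 to 275 CPM in all MCL-like primaries and 23.1 to 78.4 CPM in MCL-like transplants, and summed macrophage markers 558 to 1262 CPM against 209 to 523 CPM. The part of these cells in the results was not tested. The 10 plasma cell markers summed to 692 to 1814 CPM in MCL-like primaries and 984 to 3556 CPM in MCL-like transplants. The same sum was 1219 to 2290 CPM in Ccnd2 non-MCL primaries and 873 to 2200 CPM in p53-only primaries. In the Ccnd2 non-MCL transplants it was 2216 to 2842 CPM. Sdc1 encodes the surface marker CD138. Its TMM-scaled log2(CPM + 1) in transplants minus primary was at 3.10, 1.60 and -0.51 in the mice of primaries 1, 2 and 4. Irf4 was at 1.53, 0.31 and 0.60, and Prdm1, which encodes the plasma cell factor Blimp-1, at 0.52, 1.58 and -0.69. Tnfrsf17, which encodes the receptor BCMA, was at 0 CPM in 3 of the 6 MCL-like transplants, at 1.08 CPM in another, and at 18.7 and 9.89 CPM in transplants 1 and 2.

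Transplants 1 and 2, both from the mouse of primary 1, stood apart from the others for many genes. Of the 38 genes 25 (65.8%) were higher in both than in the other 4 MCL-like transplants, beside 25.1% of all genes that passed the filter in these libraries. Hsp90b1 had 4503 and 4017 CPM in them and 881 to 935 CPM in the other 4 MCL-like transplants. Hspa5 had 2763 and 2346 CPM against 1052 to 1560 CPM. Creld2 had 303 and 209 CPM against 65.2 to 92.7 CPM, and Manf 465 and 324 CPM against 110 to 191 CPM. These genes were chosen after their values were seen. Mzb1, a chaperone of B cells that assists assembly of secreted IgM, had 1688 and 1226 CPM against 750 to 868 CPM.

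Of the plasma cell markers, Jchain and Xbp1 were also highest in transplants 1 and 2, whereas Prdm1, at 121 and 98.0 CPM there, had 119 CPM in transplant 6. With libraries of a mouse summed, Irf4 and Sdc1 were highest in this mouse among MCL-like transplants, at 361 and 18.2 CPM (next 220 and 7.55). Slamf7, Ell2, Pou2af1 and Tent5c of the marker list are not given singly. Jchain, which joins secreted IgM into polymers, had 1705 and 780 CPM in transplants 1 and 2 and 41.3 to 92.01 CPM in the others. Xbp1 had 282 and 245 CPM against 46.6 to 130 CPM. Over all 3 mice the fitted change on transplantation was 1.82 for Jchain (SE 0.39, adjusted p = 0.75) and 0.76 for Xbp1 (SE 0.27, adjusted p = 0.82). Sel1l and Pdia4 did not share this order: Sel1l had 334 and 250 CPM in transplants 1 and 2 and 404 to 560 CPM in the others.

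The 2 Ccnd2 non-MCL transplants had no primary library of the same mouse, so no test was made. They had 39.2 and 34.3 CPM of Pdia4, 23.8 and 27.2 CPM of Creld2, 6.61 and 12.96 CPM of Derl3, and 103 and 60.0 CPM of Sel1l. For 23 of the 38 genes (60.5%) all 6 MCL-like transplants lay above both values, beside 12.2% of all genes that passed the filter in these libraries. The 4 genes just given, chosen after their values were seen, were among them, with at least 232 CPM of Pdia4, 65.2 CPM of Creld2, 69.9 CPM of Derl3 and 250 CPM of Sel1l.

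Heavy chain output was taken as the summed CPM of the heavy chain constant genes. It was 10920, 4344, 2386 and 8602 CPM in MCL-like primaries and 1833, 4771 and 1777 CPM in Ccnd2 non-MCL primaries. The p53-only libraries had 1525 CPM at the lowest and 7341 CPM at the highest. The groups overlapped, and the mean log2 level was 0.79 higher in MCL-like than in all non-MCL mice (12.45 ± 0.99, n = 4, against 11.66 ± 0.83, SD, n = 9; 2-sided exact permutation test, p = 0.162). For Ighm alone the difference was 1.32 (exact permutation p = 0.0378).

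The share of Ighm varied among libraries. It made up 97.4% to 98.2% of the heavy chain sum in MCL-like primaries and 98.6% to 99.8% in MCL-like transplants. It made up 14.7% in p53-only replicate 3, whose main gene was Ighg2b, and 21.2% in replicate 5, whose main gene was Ighg1. In the other 5 p53-only libraries it made up 62.7% to 99.4%, and in Ccnd2 non-MCL primaries 83.5% to 93.5%. In the Ccnd2 non-MCL transplants it made up 0.255% and 0.67%, with Ighg1 as the main gene. MCL-like transplants had 35900, 16120, 6913, 7620, 11220 and 5958 CPM of heavy chain genes. The change on transplantation in unscaled CPM was 1.32, 0.46 and -0.24 on the log2 scale in the mice of primaries 1, 2 and 4. TMM-scaled, Ighm was at 1.25, 0.51 and 0.14, and unscaled it went from 8452 to 7176 CPM in the mouse of primary 4. The sign there thus depends on the scaling. The medians of the 38 genes, TMM-scaled, had the same order (0.67, 0.60 and 0.21). With 3 mice this order is a description only.

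Levels of the 38 genes were set against heavy chain output in the 13 primary mice, with tumour group in the model, so that a change is per doubling of heavy chain CPM. No gene of the set was called by edgeR or DESeq2, and edgeR called 0% of all genes. At an unadjusted p under 0.05 there were 6 genes of the set (15.8%, beside 4.16% of all genes), 5 of them positive. Over the set 28 of 38 changes were positive, with a median of 0.12 against 0.01 over all genes. This median was -0.02 without MCL-like primary 3, the MCL-like tumour with the lowest heavy chain level, and 0.08 to 0.21 without any other mouse.

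All 13 chaperones and foldases had positive changes, with a median of 0.28. Calr was at 0.60 per doubling (SE 0.19), Hspa5 at 0.38 (SE 0.16), Creld2 at 0.51 (SE 0.23) and Pdia4 at 0.51 (SE 0.24), each with an adjusted p of 0.98. With Ighm alone as the measure, Calr was at 0.20 and Hspa5 at 0.21. Without the 2 mice farthest from the median heavy chain level, Calr was at 0.54 and Hspa5 at 0.36.

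The translocon genes did not share this: 8 of 11 changes were negative and their median was -0.09. Sec61g was at -0.75 (SE 0.29, adjusted p = 0.98) and at -0.98 without oTP tumours. Its high levels in p53-only replicates 4 to 7 spanned the range of heavy chain level, from 66.4 CPM in replicate 6 (1525 CPM of heavy chain) to 39.7 CPM in replicate 7 (7341 CPM). Sec61a1 was at 0.26 (adjusted p = 0.98). The 3 transcription factors were positive, with Ddit3 at 0.46 (SE 0.18) and Atf6 at 0.27. Of the J-domain genes Dnajb11 was at 0.29 (SE 0.16) and Dnajc3 at 0.30. Of the 8 degradation genes 7 were positive, with a median of 0.08, and those with the lowest p were Edem2 at 0.35 (SE 0.20) and Herpud1 at 0.22 (SE 0.36).

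**Figure D4:**
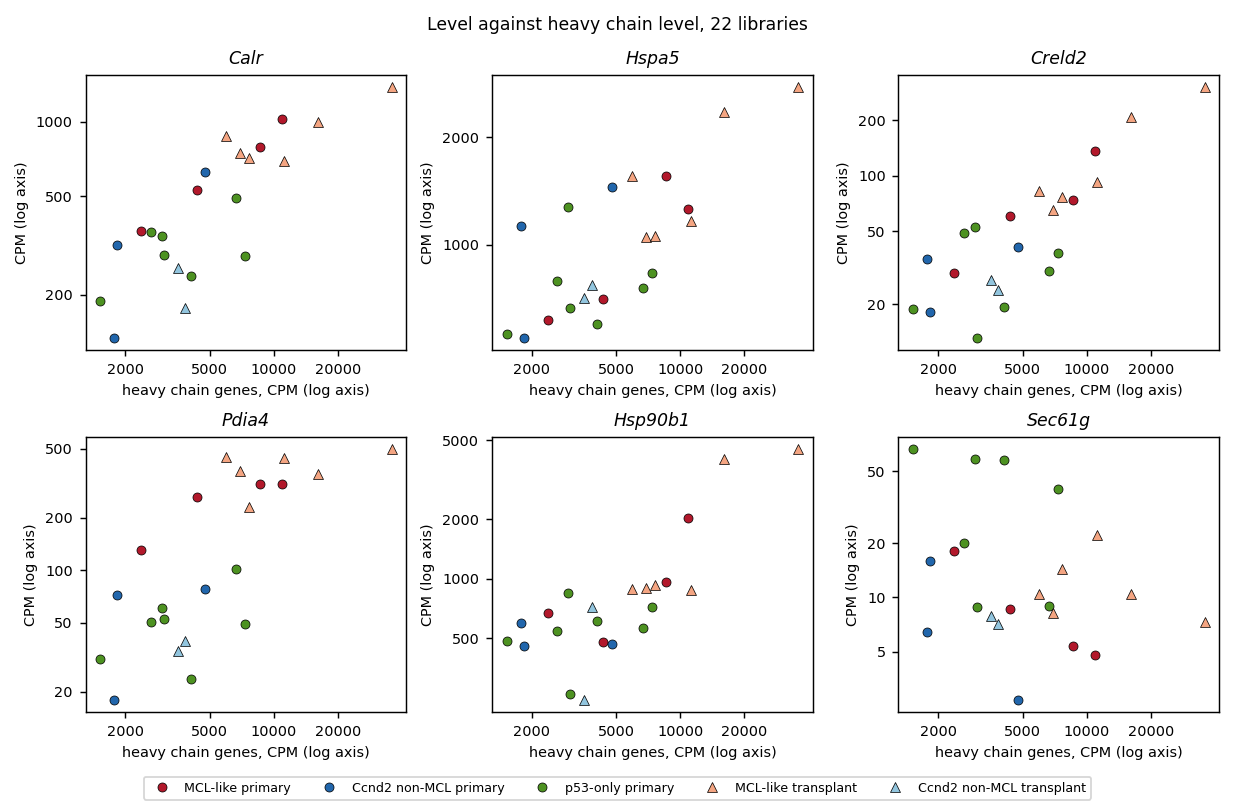
Level of Calr, Hspa5, Creld2, Pdia4, Hsp90b1 and Sec61g against the summed heavy chain genes in 22 libraries, both in CPM on log axes; circles are primaries, triangles transplants, and colours the groups. MCL-like transplants 1 and 2 (35900 and 16120 CPM of heavy chain) have the highest Hsp90b1, Hspa5 and Creld2, and the p53-only libraries with 39.7 to 66.4 CPM of Sec61g lie at the top of that panel.

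The 9 genes with an ERSE in the promoter window were compared with the other 21 genes that had a window. Along heavy chain level, 9 of 9 changes were positive in the first (median 0.30) and 14 of 21 in the second (median 0.11). On transplantation it was 8 of 9 (median 0.55) against 20 of 21 (median 0.50), and against all non-MCL primaries 6 of 9 (median 0.40) against 9 of 21 (median -0.22). Against Ccnd2 non-MCL primaries the order of the medians was the other way, with 5 of 9 (median 0.11) against 13 of 21 (median 0.27). Pdia4, the gene with the clearest difference between primaries, had a window without the ERSE letters. The 2 sets share libraries and were not tested against each other.

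Of the other genes of the pathway, 3 of 70 tested (4.29%) were called against all non-MCL primaries, close to the 5.52% of all genes. In that comparison 1 of 15 UPR sensors and regulators tested was called, Creb3l2, a membrane-bound transcription factor related to Atf6, with 91.0, 41.6, 9.18 and 51.0 CPM in MCL-like primaries and 1.27 to 18.6 CPM in the others (log2 change 2.84, SE 0.55, adjusted p = 0.0131). Of 12 other folding and redox enzymes 1 was called, Ero1lb, an oxidase that recharges disulfide isomerases (1.87, SE 0.41, adjusted p = 0.0214). Of 14 genes of transport from ER to Golgi tested 1 was called, Kdelr1, a receptor that returns ER proteins (1.01, SE 0.27, adjusted p = 0.0453). All 3 were higher in MCL-like tumours, and no gene of these lists was lower past the threshold. None of 11 N-glycosylation genes, 10 genes of the signal recognition particle and its receptor, or 8 other degradation genes was called. Xbp1 was at 0.60 (SE 0.51, adjusted p = 0.479). Of other plasma cell markers, Sdc1 was at -2.02 (adjusted p = 0.0982) and Irf4 at -0.81 (adjusted p = 0.171). Prdm1 was at 1.39 (adjusted p = 0.14) and Jchain at 0.21 (adjusted p = 0.931).

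In the other 4 comparisons no gene of these lists was called. On transplantation the lowest p belonged to Fkbp2, an ER prolyl isomerase (1.13, SE 0.33, adjusted p = 0.82), Srp19, a subunit of the signal recognition particle (0.93, SE 0.31), and Selenos, a selenoprotein of ER-associated degradation (0.98, SE 0.33). Ero1lb had a negative change there (-0.65, SE 0.30, adjusted p = 0.82), so the called difference between primaries and the change on transplantation had opposite signs for it. Creb3l2 was the pathway gene with the lowest p along heavy chain level (0.89 per doubling, SE 0.25, adjusted p = 0.98).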

How the data were processed

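The 22 libraries were made with a QuantSeq 3′ kit from RNA of frozen tumour cells, per the labels' protocols. FastQC, STAR and GRCm38 were used, per the submitters' processing notes; the sources used here name no version, read counter, strand setting or gene annotation. The authors deposited unnormalized counts for Ensembl gene identifiers, and 52403 of 52636 identifiers matched GENCODE M21. Reads of overlapping genes or near-identical copies could be split or shared in them.

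From the deposited counts, CPM were computed per library, and changes were fitted with edgeR 4.0.16 in R 4.3.3 (quasi-likelihood F test, TMM, default low-count filter at 10 counts, Benjamini-Hochberg adjustment over all genes, called under 0.05), with the mouse as replicate and libraries of 1 mouse summed. DESeq2 1.42.0 was an alternative. Figures use a pseudocount of 1. The scripts were tested on simulated data. In the transplant fit the mouse was a block, since the labels name each donor; deviations correlated at 0.263, 0.363 and 0.274 within a mouse. The p-values rest on the spread between mice. In the transplant fit they rest on how the change within a mouse varied from mouse to mouse. The closest pair of the 231 library pairs had a chi-square per degree of freedom of 5.36, so none was counted as a repeat.

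The 38 genes, the pathway lists and the tests were chosen with earlier results of these data known. Named genes are those called plus the 2 of lowest p in each role and comparison; other names were chosen after their values were seen.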

Additional observations from a re-analysis of the deposited data

Results flagged for a closer look

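Among 114 sets of 4 or 6 mice, 12 held a highest or lowest mouse far from the others by Dixon's test at its 95% critical value, where chance gives about 1 in 20. In MCL-like transplants the mouse of primary 1 was far above the others for 7 genes. It had 4291 CPM of Hsp90b1 (next 914), 670 CPM of Pdia3, 65.5 CPM of Sdf2l1, 262 CPM of Creld2, 101 CPM of Edem2, 465 CPM of Canx and 1486 CPM of Mzb1. The mouse of primary 4 was far below the others for Pdia4, at 302 CPM. Among MCL-like primaries, replicate 3 was low for Sdf2l1 at 13.3 CPM, replicate 4 high for Sel1l at 543 CPM (next 243) and replicate 2 high for Spcs1 at 101 CPM. Among p53-only mice, the mouse of replicates 2 and 5 was high for Derl3 at 30.4 CPM (next 7.59).

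Outside the main measurement, Ighg1 reached 3603 and 3178 CPM in the Ccnd2 non-MCL transplants, above the 1479 CPM that was the highest value in any primary library.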

How the results depend on the processing

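Between MCL-like and all non-MCL primaries, where 2 genes of the set were called, the count was 1 with library size scaling, 7 with DESeq2, 4 without immunoglobulin and haemoglobin genes, 1 without oTP tumours, 1 with the name prefix as a covariate and 0 among spleen tumours, and 1 to 6 when 1 mouse was left out. The median of the set in that comparison was -0.13 without MCL-like primary 1. Against Ccnd2 non-MCL primaries DESeq2 called 3 where edgeR called 0. On transplantation 1 gene was called with no filter on low counts. The heavy chain difference became 1.32 with Ighm alone (exact permutation p = 0.0378), and leaving out each mouse gave 0.46 to 1.19. The fit without a replicate block (no mouse block) gave 0 called genes of the set on transplantation and a median of 0.49, so it changed no call. The other groups were not paired.

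Single genes whose sign turned were Dnajb11 against Ccnd2 non-MCL (-0.52 to 0.041 over left-out mice, the last without Ccnd2 non-MCL replicate 2), Dnajb9 against all non-MCL (0.34 without oTP tumours, 0.63 with the prefix covariate, 0.20 in spleen), Sec61g there (0.20 in spleen), and Ddit3 on transplantation (-0.341 without the mouse of primary 1, 0.78 without that of primary 2). In Ccnd2 non-MCL against p53-only they were Spcs3 (0.19 without oTP, 0.049 in spleen), Atf4 (-0.77 without oTP, -0.50 to 0.63 over left-out mice, the lowest without Ccnd2 non-MCL replicate 3) and Syvn1 (0.18 in spleen). Along heavy chain level they were Herpud1 (-0.055 with no group term, -0.014 to 0.52 over left-out mice) and Atf6 (-0.0087 to 0.41). The cause was not tested. The fit without the 2 mice farthest from the median heavy chain level was chosen after seeing the data. Low counts, as for Derl3 (0.371 CPM at the lowest), Sec61g and Dnajb9, carry a larger relative counting error.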
